A study of Caenorhabditis elegans with 13 samples.

Results

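MicroRNAs (miRNAs) are numbered roughly in order of discovery. The late-numbered miRNAs of Caenorhabditis elegans described here are all mature miRNAs whose hairpin number is 1000 or above, except those of 11 hairpins. Left out were mir-1821 and hairpins of a cluster on chromosome X. That gave 184 mature miRNAs from 110 hairpins, out of 434 mature miRNAs and 250 hairpins listed in all. They were chosen by name, not by any measured value. Of the remaining names, 234 carry numbers under 1000 (let-7, lin-4 and lsy-6 counted with them) and 16 come from the excluded hairpins. The study sequenced small RNA of N2 animals, the usual wild-type laboratory strain, as whole worms in 13 libraries. There was 1 library of CR worms and 1 of IF worms for each of adult days 4, 6, 8 and 10, and 1 library of worms fed ad libitum (AL) for each of adult days 2, 4, 6, 8 and 10. The labels abbreviate CR and IF and describe neither regimen, and the series' title places the study in dietary restriction and longevity. All groups share the N2 genotype, and the labels give neither how many animals went into a library nor whether libraries came from separate cultures.

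A miRNA is cut from a hairpin in a longer transcript. The enzyme Dicer leaves a duplex of a 5p and a 3p strand, and usually 1 of the strands is kept in an Argonaute protein, where it lowers the output of matching mRNAs. The earliest-numbered worm miRNAs, such as lin-4 and let-7, were found through mutants with defects in developmental timing and are abundant. Late-numbered ones were mostly found by deep sequencing or prediction, and for most of them no function is widely known, so host genes are named where a hairpin lies inside one. A mirtron is a special kind: its hairpin is a whole short intron, released by splicing.

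The libraries held 2639586 to 5143918 miRNA reads. Levels are given as counts per 1000000 reads (CPM), scaled by trimmed mean of M values (TMM), which sets libraries to a common typical miRNA rather than a common total; the TMM factors ranged from 0.475 to 1.63, and were lowest on day 8 in each diet. Reads per library and not molecules were counted, so intervals cover counting error only. Because whole animals were used, fewer cells of a type and less RNA per cell cannot be told apart. Of 16 tissue marker miRNAs listed for whole worms, 14 had 3 or more reads in all 13 libraries; the neuronal miR-124-3p (0 to 25 reads) and lsy-6-3p (2 to 14 reads) reached 3 reads in 12 libraries each.

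Most of the late-numbered miRNAs were rare or unseen. Of the 184, 90 (48.9%) had 3 or more reads in at least 1 library, 52 had at most 1 or 2 reads in any library, and 42 had no read. By the same count, 201 of the 234 miRNAs numbered under 1000 (85.9%) were detected and 18 had no read. Only 21 late-numbered miRNAs were detected in all 13 libraries, 67 in 4 or more, and 15 in a single library. A count of 0 allows up to 3 reads, which is 0.48 CPM (CR day 6) to 1.48 CPM (CR day 8) in these libraries on the same scale, so an unseen miRNA was not detectable at this depth and is not shown to be absent. The number detected per library ranged from 42 (IF day 4) to 68 (CR day 6). IF day 4 was also the library with the fewest reads, 2639586 against 4000827 on CR day 6. The other miRNAs detected numbered 175 on IF day 4 and 197 on CR day 6.

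**Figure D1:**
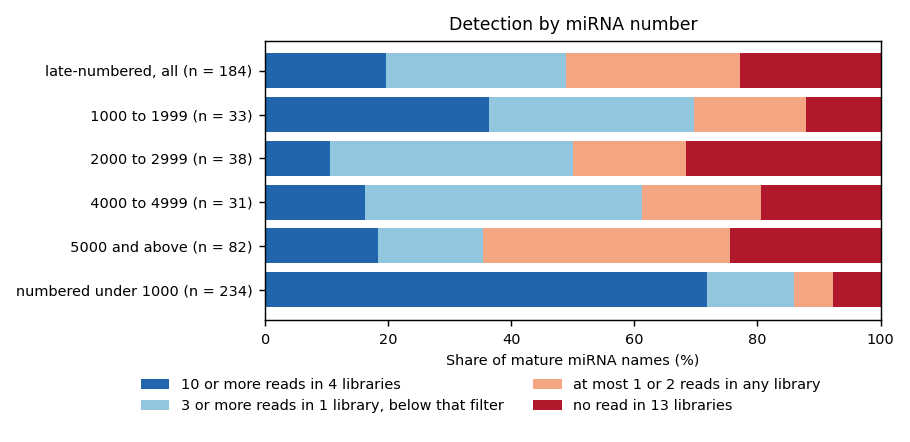
Share of mature miRNA names (x axis, %) in 4 classes of read count over 13 libraries, for the 184 late-numbered miRNAs, their 4 number ranges and the 234 miRNAs numbered under 1000. The dark blue share (10 or more reads in 4 libraries) is 19.6% of the late-numbered miRNAs, against 71.8% of those numbered under 1000.

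Detection was uneven over the number ranges. From 1000 to below 2000, 23 of 33 names were detected and 12 reached 10 reads in 4 libraries, the minimum used for every test. From 2000 to below 4000, 19 of 38 were detected and 4 reached that minimum; from 4000 to below 5000, 19 of 31 and 5; and from 5000 upwards, 29 of 82 and 15. In all, 36 late-numbered miRNAs (19.6%) reached it, against 168 of the 234 numbered under 1000 (71.8%). The 36 held 96.5% of all late-numbered reads.

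The edge of that minimum was not sharp. Just inside it, miR-5549-3p (mean 1.74 CPM) had 10 or more reads in 6 libraries. miR-2208a-5p, miR-1832a-3p and miR-2217b-3p had them in 5, and both arms of miR-1822 in 4. Just outside it, with 10 or more reads in 3 libraries each, were miR-1823-3p, miR-2207-5p, miR-2217a-3p, miR-2209b-3p, miR-8199-5p and miR-5593-5p. miR-1823-3p reached 26 reads on CR day 6, 30 on IF day 6 and 64 on AL day 6, and had at most 7 reads in each of the other 10 libraries. Its mean of 2.68 CPM is above the means of 7 miRNAs inside the minimum.

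Taken over all libraries, the late-numbered miRNAs made up 65452 of 49734521 reads, or 0.132%. Their share of a library on days 4, 6, 8 and 10 was 0.111%, 0.199%, 0.0905% and 0.127% in CR worms, 0.0774%, 0.241%, 0.0823% and 0.174% in IF worms, and 0.101%, 0.302%, 0.0676% and 0.104% in AL worms, with 0.0878% on AL day 2. The 95% Wilson intervals of these shares are at most 0.0121 percentage points wide. Day 6 was the highest day in all 3 diets, and day 8 the lowest in CR and AL worms, while in IF worms day 4 was lower than day 8. These are shares of total reads, without TMM scaling, and the day order depends on that choice. With TMM library sizes day 8 is not the lowest day in CR or AL worms, and CR day 8 is slightly above CR day 6.

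miR-5592-3p alone held 48.7% of these reads, and the 10 most abundant miRNAs 84.0%. It had 465, 675, 454 and 418 CPM in CR worms on days 4, 6, 8 and 10, 183, 731, 390.1 and 344 CPM in IF worms, and 440.1, 1015, 1412, 576 and 514 CPM in AL worms on days 2, 4, 6, 8 and 10. AL days 4 and 6 stand highest and IF day 4 lowest. With a mean of 586 CPM it ranked 57 among all 434 miRNAs. Its hairpin is listed at 2 loci that are opposite strands of nearly the same stretch of chromosome X, 13759245 to 13759308 on the minus strand (mir-5592-1) and 13759247 to 13759310 on the plus strand (mir-5592-2), inside an intron of aakb-1, which codes for a beta subunit of AMP-activated protein kinase. Both loci list identical 3p counts in every library, so the reads are shared and the strand they came from is not resolved. Positions here are 1-based, from the WBcel235 annotation.

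miR-1820-5p, from a hairpin outside any protein-coding gene (chromosome IV, 7767461 to 7767567, plus strand), was the other miRNA with a mean over 100 CPM. It had 144, 168, 352 and 159 CPM in CR worms, 254, 225, 268 and 174 CPM in IF worms and 114, 84.9, 148, 309 and 194 CPM in AL worms, in day order. With TMM, day 8 was the highest day in each diet, whereas with CPM of the total count day 6 was the highest day in each diet. The other 8 of the 10 most abundant miRNAs had means of 18.9 to 68.3 CPM. By contrast, 78 of the 234 miRNAs numbered under 1000 had a mean of 100 CPM or more.

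**Figure D2:**
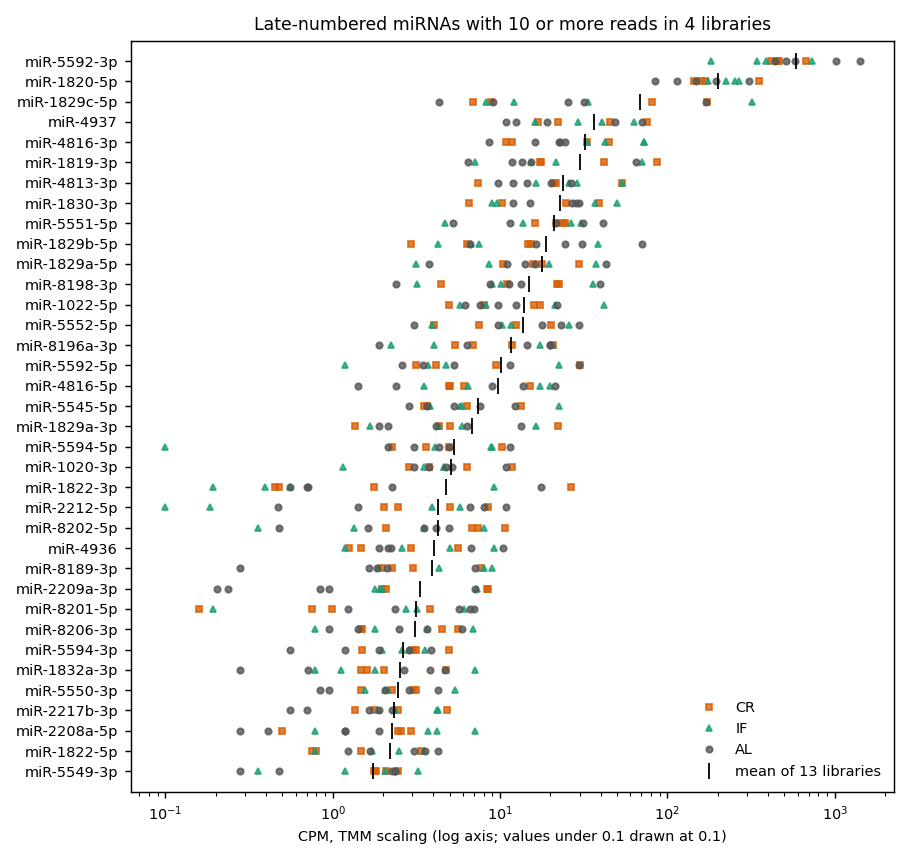
CPM of the 36 late-numbered miRNAs with 10 or more reads in 4 libraries, by library (x axis, log scale, TMM-scaled CPM; values under 0.1 are drawn at 0.1), in order of their mean (black bar). Only miR-5592-3p and miR-1820-5p have means over 100 CPM, and 16 of the 36 have means of 10 CPM or more.

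Next in abundance came miR-1829c-5p, miR-4937, miR-4816-3p, miR-1819-3p, miR-4813-3p, miR-1830-3p, miR-5551-5p and miR-1829b-5p. miR-1830-3p, from an intron of paic-1, a purine synthesis enzyme gene, had 24.8, 39, 10.3 and 6.55 CPM in CR worms, 49.9, 37.2, 9.63 and 8.92 CPM in IF worms and 29.8, 26.99, 28.7, 11.9 and 15.1 CPM in AL worms, in day order. Its values were lowest on days 8 and 10 in every diet. miR-5551-5p, from a hairpin outside protein-coding genes on chromosome IV, had 16.3, 24.5, 21.7 and 23.9 CPM in CR worms, 4.71, 30.5, 26.7 and 13.7 CPM in IF worms and 5.21, 11.4, 21.5, 41.4 and 31.4 CPM in AL worms. Its 2 lowest libraries were IF day 4 and AL day 2.

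Of the 110 hairpins, 108 were found by name in the annotation, and mir-2217b-4 and mir-5593-2 were not. No protein-coding gene contains 51 of them, 39 lie within an intron on the same strand as the host, 13 within an intron on the opposite strand, and 5 overlap an exon. Among the 34 placed hairpins with an arm past the minimum, the counts were 16, 14, 3 and 1 in the same order. Loci that list the same mature miRNA were each counted here. They are mir-2217b-1, mir-2217b-2 and mir-2217b-3 (125, 122 and 125 reads of miR-2217b-3p) and both mir-5592 loci. Which of these loci the reads came from is not resolved, and mir-2217b-1 and mir-5592-1 are among the 3 opposite-strand cases. The exon case is mir-4813 (chromosome III, 4571640 to 4571716, plus strand), which overlaps an exon of idhg-1, a gene for a subunit of mitochondrial isocitrate dehydrogenase. These 34 hairpins lie 11 on chromosome IV, 10 on X, 6 on III, 4 on II, 2 on I and 1 on V. Among the hosts of same-strand intronic hairpins are gas-1, a subunit of mitochondrial complex I (mir-1829a), piki-1, a phosphoinositide 3-kinase (mir-1829c), hil-2, a linker histone (mir-8201), unc-77, a sodium leak channel (mir-8202), and the splicing factor genes prp-6 (mir-5552) and rsp-8 (mir-1832a).

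A mirtron's geometry, a hairpin that spans a whole annotated intron end to end, was found for 7 of these hairpins: mir-1019 (in dyf-5), mir-1020 (in T16G12.1), mir-4816 (in T09B4.2), mir-4920 (in sph-1), mir-4924 (in T11G6.5), mir-4926 (in ari-1.3) and mir-4927 (in M01F1.4). Arms past the minimum came from 2 of the 7. mir-1020 fills an intron of 70 nt (chromosome III, 10047746 to 10047815, minus strand), and all 231 reads of its hairpin were on the 3p arm. miR-1020-3p had 3.76, 2.88, 11.8 and 6.32 CPM in CR worms, 3.53, 1.15, 4.64 and 4.64 CPM in IF worms and 3.79, 4.73, 3.07, 10.9 and 5.19 CPM in AL worms, in day order. mir-4816 fills an intron of 65 nt (chromosome I, 6185080 to 6185144, plus strand) and had both arms past the minimum.

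The 3 miRNAs named mir-1829 did not share a pattern. miR-1829a-5p, miR-1829b-5p and miR-1829c-5p come from introns of 3 genes on chromosome X, gas-1 (15588311 to 15588370, minus strand), F20D1.3 (14977119 to 14977178, plus strand) and piki-1 (15236362 to 15236423, minus strand). miR-1829b-5p had 15.3, 6.39, 2.96 and 14.7 CPM in CR worms, 7.46, 6.705, 4.28 and 38.3 CPM in IF worms and 31.02, 70.95, 24.4, 6.66 and 16.5 CPM in AL worms, in day order. AL day 4 was the highest library of miR-1829b-5p with TMM and IF day 10 with total counts, and CR day 8 was the lowest with both. miR-1829a-5p peaked on day 6 and miR-1829c-5p on day 10 in all 3 diets, and across the 13 libraries Pearson's r of log2 CPM was -0.58 between a and c, -0.25 between a and b, and 0.46 between b and c. These r are descriptions over libraries that share diets and days, and carry no test. The 3p arms of b and c, both under the minimum, had equal counts in 12 of 13 libraries and differed by 2 reads in the other, so they cannot be told apart in these counts.

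The 5 hairpins named mir-2208 (a and b) and mir-2209 (a, b and c) lie within 10000 bp of each other on chromosome IV, mir-2209b on the minus strand (1021303 to 1021365) and the other 4 on the plus strand between 1021772 and 1027281. Their 10 mature names summed to 55, 54, 9 and 77 reads in CR worms on days 4, 6, 8 and 10, 13, 64, 42 and 93 reads in IF worms, and 8, 7, 10, 9 and 48 reads in AL worms on days 2, 4, 6, 8 and 10. In CPM the sums were 13.8, 8.63, 4.43 and 17.4 in CR, 5.104, 12.3, 14.98 and 17.3 in IF, and 1.95, 2.05, 4.28 and 11.3 in AL worms on days 4, 6, 8 and 10. The sums of CR and of IF worms were above the AL sum of the same day on all 4 days, with CR day 8 close to AL day 8, and the diets overlap across days. This sum was formed with earlier results known and was not tested. The mir-2208 names supplied 36 of the 42 reads on IF day 8. The mir-2209 names supplied 53 of the 55 on CR day 4 and 38 of the 48 on AL day 10. On CR day 6 the 54 reads were nearly even, with 26 from the mir-2208 names and 28 from the mir-2209 names.

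mir-4925 is kept by the number rule although its hairpin (chromosome X, 1879562 to 1879620, plus strand) lies inside the excluded cluster, between mir-1018 and mir-4923b. It stayed under the minimum, with 1, 6, 0 and 17 reads in CR worms on days 4, 6, 8 and 10, 0, 4, 1 and 42 reads in IF worms, and 0, 1, 0, 0 and 5 reads in AL worms on days 2, 4, 6, 8 and 10. Day 10 was the highest day in all 3 diets, and IF day 10 the highest library.

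Levels of most of the tested late-numbered miRNAs differed between adult days. In a model of diet and day on the 12 libraries of days 4 to 10, the day terms passed for 26 of the 35 late-numbered miRNAs tested (74.3%), close to the 76.4% of all 212 miRNAs tested (162 called; edgeR quasi-likelihood F test over 3 day terms, Benjamini-Hochberg adjusted p under 0.05). Each diet and day has a single library, so this test takes the 3 diets of a day as its replicates, and its p-values measure only the spread between these libraries. miR-1822-5p had 10 reads in too few of these 12 libraries and was left out. The smallest p belonged to miR-1829c-5p (F = 54.2, adjusted p = 6.67e-07, edgeR). It had 81.2, 6.87, 8.87 and 173 CPM in CR worms on days 4, 6, 8 and 10, 33.4, 8.24, 12.1 and 322 CPM in IF worms, and 31.96, 25.6, 4.298, 9.04 and 171 CPM in AL worms on days 2, 4, 6, 8 and 10. All 3 libraries of day 10 stand above the other 9 of days 4 to 10, and days 6 and 8 are low in every diet.

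miR-1822-3p, from an intron of ZK84.2, followed (F = 30.4, adjusted p = 1.15e-05, edgeR). It had 7, 3, 54 and 2 reads in CR worms, 1, 1, 26 and 3 reads in IF worms and 3, 2, 11, 37 and 3 reads in AL worms, in day order, or 26.6 CPM in CR, 9.27 CPM in IF and 17.6 CPM in AL worms on day 8. Most of its reads were in the 3 libraries of day 8, which do not overlap the others. Only these 3 libraries and AL day 6 had 10 or more of its reads. It thus reached the minimum through the day on which it was high, so its small p is no independent support for a day 8 peak. miR-1819-3p (chromosome X, 16207955 to 16208035, plus strand, outside protein-coding genes; F = 18.8, adjusted p = 0.0001, edgeR) had 17.5, 17.3, 86.2 and 41.6 CPM in CR worms, 7.07, 21.6, 70.2 and 15.4 CPM in IF worms and 13.5, 6.4, 11.9, 65.2 and 15.3 CPM in AL worms. Day 8 was its highest day in each diet, and CR day 10 was above the remaining libraries. mir-2212 lies beside it on the same strand (16207829 to 16207888), yet miR-2212-5p was highest on day 6, at 8.47 CPM in CR, 5.75 CPM in IF and 10.8 CPM in AL worms, and r between the neighbours was -0.01 over 13 libraries.

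Day 6 was the peak of another set. miR-8198-3p, whose hairpin (chromosome IV, 16214390 to 16214461, minus strand) overlaps an annotated piRNA on the same strand, had 21.8, 22.5, 4.43 and 11.1 CPM in CR worms, 10.2, 36.02, 3.21 and 8.92 CPM in IF worms and 8.76, 13.4, 39.7, 2.38 and 11.3 CPM in AL worms (F = 16.6, adjusted p = 0.000174, edgeR). Its day 6 libraries were above and its day 8 libraries below all others of days 4 to 10. miR-1829a-5p had 15.8, 29.6, 17.7 and 10.4 CPM in CR worms, 3.14, 37.4, 19.6 and 8.54 CPM in IF worms and 3.79, 14.2, 43.2, 16.2 and 11.1 CPM in AL worms. All 3 libraries of day 6 stand above the other 9, and IF day 4 and AL day 2 are the lowest. miR-4813-3p had 21.6, 53.7, 7.39 and 21.01 CPM in CR worms, 29.1, 53.4, 16.4 and 25.8 CPM in IF worms and 9.71, 14.5, 26.4, 11.9 and 20.3 CPM in AL worms, with day 6 highest in each diet and CR and IF above AL on that day. miR-5592-3p was also highest on day 6 in each diet, but its differences between days did not pass the test (adjusted p = 0.0682, edgeR).

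**Figure D3:**
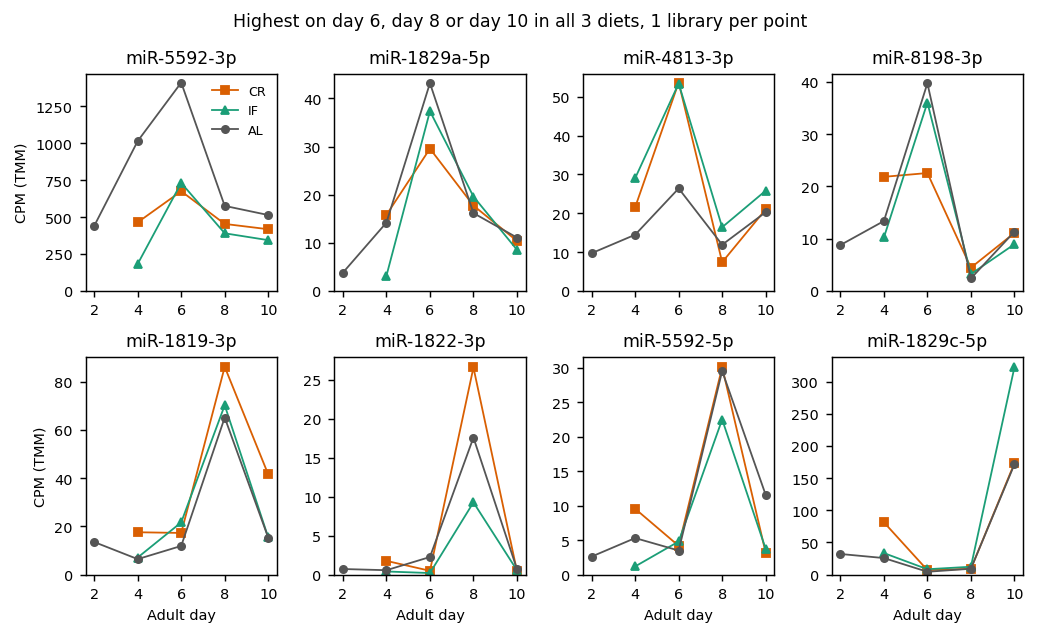
CPM (y axis, TMM scaling, linear, a separate range per panel) by adult day (x axis) for 8 of the 9 late-numbered miRNAs that were highest on the same day in all 3 diets under both scalings; each point is 1 library, CR orange squares, IF green triangles, AL grey circles. The upper row peaks on day 6, miR-1819-3p, miR-1822-3p and miR-5592-5p on day 8, and miR-1829c-5p on day 10; miR-2212-5p (day 6) is not drawn.

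Which day is the peak depended on the scaling for many of these miRNAs, so it was also scored with CPM of the total count. With TMM, 17 of 35 late-numbered miRNAs were highest on the same day in all 3 diets (all miRNAs: 109 of 212, 51.4%), 10 of them on day 8 (all: 24.5%) and 5 on day 6 (all: 8.02%). With total counts it was 23 of 35 (all: 56.1%), 3 of them on day 8 (all: 10.8%) and 17 on day 6 (all: 31.6%). Under both scalings 9 of 35 kept the same peak day (all: 60 of 212, 28.3%): miR-5592-3p, miR-1829a-5p, miR-2212-5p, miR-4813-3p and miR-8198-3p on day 6, miR-1819-3p, miR-1822-3p and miR-5592-5p on day 8, and miR-1829c-5p on day 10. Of these, the 3 libraries of the peak day stood above the other 9 under both scalings for 2 on day 6 (miR-1829a-5p and miR-8198-3p; all: 5.19%), 2 on day 8 (miR-1822-3p and miR-5592-5p; all: 8.49%) and 1 on day 10 (miR-1829c-5p; all: 3.77%).

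The next smallest p-values were for miR-1829a-3p (adjusted p = 0.0001), miR-8196a-3p (0.000498) and miR-5592-5p (0.0012), all by edgeR. miR-1829a-3p had 5.01, 4.32, 22.2 and 1.36 CPM in CR worms, 4.32, 5.94, 16.4 and 1.67 CPM in IF worms and 2.13, 4.17, 6.34, 13.3 and 1.89 CPM in AL worms, and its day 10 libraries were below all others of days 4 to 10 under both scalings. miR-8196a-3p, from a hairpin on chromosome X that overlaps a long noncoding RNA, had 11.8, 6.87, 20.7 and 5.42 CPM in CR worms, 17.3, 4.02, 20.7 and 2.23 CPM in IF worms and 19.9, 14.5, 6.34, 19.97 and 1.89 CPM in AL worms. Days 4 and 8 were above days 6 and 10 in every diet with TMM; with total counts AL day 8 was just below AL day 6. miR-5592-5p had 9.53, 4.16, 30.05 and 3.16 CPM in CR worms, 1.18, 4.79, 22.5 and 3.72 CPM in IF worms and 2.604, 5.29, 3.48, 29.5 and 11.6 CPM in AL worms, with its 3 day 8 libraries above the other 9.

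Lower-level miRNAs gave other day orders. miR-8206-3p had 4.48 CPM in CR, 3.64 CPM in IF and 3.68 CPM in AL worms on day 6 and 5.65 CPM in CR, 6.87 CPM in IF and 5.89 CPM in AL worms on day 10, and at most 1.78 CPM on days 4 and 8 in CR and IF worms (adjusted p = 0.00655, edgeR). miR-5545-5p, from an intron of dnj-27, a gene for a chaperone of the endoplasmic reticulum, had 13.3 CPM in CR, 22.5 CPM in IF and 12.4 CPM in AL worms on day 8 and 3.68 CPM in CR, 3.83 CPM in IF and 3.68 CPM in AL worms on day 6 (adjusted p = 0.00221, edgeR). With total counts its AL values were 5.87 CPM on day 8 and 5.67 CPM on day 6, and AL day 10 was the highest AL library, at 6.57 CPM. miR-1022-5p had 8.02, 15.98, 17.2 and 4.97 CPM in CR worms, 8.24, 21.5, 41.7 and 5.76 CPM in IF worms and 6.16, 9.74, 12.5, 21.9 and 7.54 CPM in AL worms (adjusted p = 0.00248, edgeR), with IF day 8 its highest library (with total counts, IF day 6). Among the 9 that did not pass were miR-1820-5p (adjusted p = 0.0907), miR-4816-3p (0.221) and miR-1832a-3p (0.753), all by edgeR.

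Oocyte and embryo miRNAs of the mir-35 family also had unequal sums by day: the 8 of 8 listed members summed to 179782, 167587, 46917 and 84756 CPM in CR worms on days 4, 6, 8 and 10, 411689, 192581, 93349 and 108751 CPM in IF worms, and 146187, 168372, 99793, 38724 and 74250 CPM in AL worms on days 2, 4, 6, 8 and 10. Day 8 was the lowest day in every diet. The part of these miRNAs, and of the low TMM factors of day 8, in the day differences was not tested. Without the 3 day 8 libraries the day terms passed for 14 of 34 late-numbered miRNAs, all 14 of them among the 26, against 39.5% of all 205 miRNAs tested (81 called; edgeR).

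A straight-line slope with adult day, 1 slope for all diets, was fitted on all 13 libraries. It passed for 2 of 36 late-numbered miRNAs, against 13.6% of the 214 miRNAs tested (29 called, higher 6.54%, lower 7.01%). Such a slope does not show a steady change or the same course in each diet. miR-4937 (chromosome IV, 1381705 to 1381814, minus strand, outside protein-coding genes) rose by 0.29 ± 0.09 log2 units per day (SE; adjusted p = 0.0406, edgeR). It had 16.8, 22.2, 45.3 and 75.9 CPM in CR worms on days 4, 6, 8 and 10, 16.1, 29.3, 63.1 and 40.7 CPM in IF worms, and 19.2, 12.5, 10.8, 70.9 and 48.6 CPM in AL worms on days 2, 4, 6, 8 and 10. With TMM, days 8 and 10 were above days 4 and 6 in every diet, whereas with total counts day 6 was above day 8 in CR and IF worms. miR-4816-5p, an arm of the mirtron-like mir-4816, fell by 0.37 ± 0.11 log2 units per day (SE; adjusted p = 0.0406, edgeR). It had 5.01, 15.02, 4.93 and 6.099 CPM in CR worms, 20.02, 17.4, 6.42 and 3.53 CPM in IF worms and 21.3, 8.904, 13.7, 2.38 and 1.41 CPM in AL worms. In AL worms days 8 and 10 were the lowest, whereas in CR worms day 6 stood above the other days.

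No other late-numbered miRNA passed for slope. miR-1830-3p had -0.29 ± 0.09 log2 units per day (adjusted p = 0.0501), miR-8206-3p 0.26 ± 0.10 (0.107) and miR-2209a-3p 0.31 ± 0.13 (0.118; SE, edgeR). Both slope calls were sensitive to single libraries: without any 1 of AL day 4, AL day 8, AL day 10, CR day 6, IF day 4 or IF day 6, no late-numbered miRNA passed, and without CR day 10, IF day 8 or IF day 10 only 1 did. Without AL day 2 or CR day 4, 2 passed, but only 1 of them was miR-4937 or miR-4816-5p. Without the day 8 libraries 2 passed, and neither was miR-4937 or miR-4816-5p (all: 17.9%). Neither call held with the libraries of a day as a random block (adjusted p = 0.434 for miR-4937 and 0.314 for miR-4816-5p, limma-voom). No slope differed between diets for any of 212 miRNAs (0%; edgeR; 1 had an unadjusted p under 0.05, none of the 35 late-numbered ones; DESeq2 and limma-voom also called 0).

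IF worms differed from AL worms in 2 of the 35 late-numbered miRNAs, both higher, against 14.2% of all 212 tested (30 called; higher 8.49%, lower 5.66%; diet and day model, edgeR). The median log2 fold change of the 35 was 0.06, and of all 212 it was 0.03. miR-4816-3p, the 3p arm of the intron-filling mir-4816, had 73.02, 72.8, 33.2 and 42.4 CPM in IF worms on days 4, 6, 8 and 10, against 8.63, 24.4, 22.8 and 16.3 CPM in AL worms. It averaged 55.3 ± 20.6 CPM in IF and 18.02 ± 7.18 CPM in AL worms (SD over 4 days), and the 4 IF libraries lay above the 4 AL libraries without overlap (with total counts, IF day 8 was below AL day 6). Among the 35 it was the only one whose diets did not overlap, as was the case for 3.77% of all 212 (8). It rose by 1.65 ± 0.47 log2 units in IF worms (SE; adjusted p = 0.0280, edgeR), with a difference of 3.01, 1.56, 0.53 and 1.35 on days 4, 6, 8 and 10.

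miR-2208a-5p rose by 2.10 ± 0.53 log2 units in IF worms (SE; adjusted p = 0.0163, edgeR) and rests on few reads. It had 2, 22, 20 and 20 reads in IF worms on days 4, 6, 8 and 10, against 1, 2, 4 and 5 reads in AL worms. Its 5 libraries with 10 or more reads were all of IF or CR worms, and none was of AL worms. It thus entered the test only through diets in which it was higher, so its call is no independent support for a difference. IF was higher on 4 of 4 days, IF day 4 rests on 2 reads against 1, and IF day 4 lies within the AL values. Each call rested on several single libraries. Without AL day 6, IF day 6 or IF day 8 neither miRNA passed (adjusted p from 0.0536 to 0.123), and without AL day 4, IF day 4 or AL day 10 miR-4816-3p did not (0.0599 to 0.0996). In a model without day both had an adjusted p of 0.416 (edgeR).

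**Figure D4:**
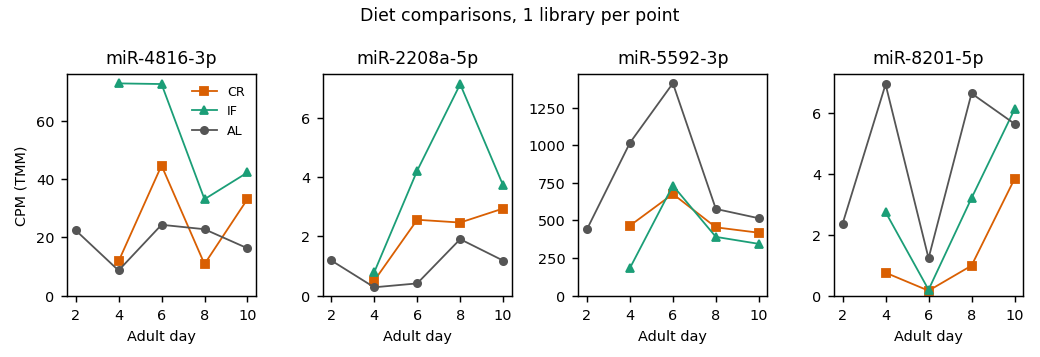
CPM (y axis, TMM scaling, linear, a separate range per panel) by adult day (x axis) for 4 late-numbered miRNAs of the diet comparisons; each point is 1 library, CR orange squares, IF green triangles, AL grey circles. miR-4816-3p and miR-2208a-5p are higher in IF than in AL worms on all 4 days; miR-5592-3p (lower in CR and IF worms on all 4 days on this scale, though not with total counts) and miR-8201-5p (lower in CR worms on all 4 days) did not pass the test.

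miR-5592-3p, the most abundant late-numbered miRNA, had 183, 731, 390.1 and 344 CPM in IF worms on days 4, 6, 8 and 10, against 1015, 1412, 576 and 514 CPM in AL worms. It was lower in IF worms on 4 of 4 days, with differences of -2.47, -0.95, -0.56 and -0.58 log2 units with TMM, while with total counts IF day 10 was above AL day 10; the groups overlap, and the difference of -1.11 ± 0.36 did not pass (SE; adjusted p = 0.0519, edgeR). It passed with DESeq2 (-1.20, adjusted p = 0.0112) and limma-voom (-1.14, 0.0375) and stayed far from the threshold with total-count scaling (-0.65, 0.262, edgeR). Next came miR-2217b-3p (1.29 ± 0.47, adjusted p = 0.0788) and miR-1822-3p (-1.30 ± 0.64, 0.187; SE, edgeR). IF and AL worms stood on the same sides on 4 of 4 days for 11 of 35 late-numbered miRNAs (31.4%), against 35.4% of all miRNAs. The mir-35 family sum was also higher in IF than in AL worms on 4 of 4 days, and its part in these differences was not tested.

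No late-numbered miRNA passed between CR and AL worms, and neither did any of the 212 tested (0%; edgeR). At an unadjusted p under 0.05 there were 39 miRNAs, 7 of them late-numbered; DESeq2 called 21, of which 2 late-numbered (miR-8201-5p and miR-1829b-5p), and limma-voom 0. The smallest p was that of miR-8201-5p, from an intron of hil-2, a linker histone gene. It had 3, 1, 2 and 17 reads in CR worms on days 4, 6, 8 and 10, against 25, 6, 14 and 24 reads in AL worms. CR was lower on 4 of 4 days, with differences of -2.57, -1.39, -2.27 and -0.50 log2 units, with overlap between the diets across days (-2.08 ± 0.56, SE; adjusted p = 0.0577, edgeR). miR-1829b-5p was lower in CR worms on 4 of 4 days too, most on day 4 (-2.18) and least on day 10 (-0.16, and higher with total counts), at -1.61 ± 0.55 (SE; adjusted p = 0.116, edgeR).

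Further values between CR and AL worms also missed the threshold. miR-2209a-3p had 34, 13, 4 and 37 reads in CR worms on days 4, 6, 8 and 10, against 3, 1, 2 and 30 reads in AL worms, at 1.63 ± 0.59 log2 units (SE; adjusted p = 0.142, edgeR). The diets differ most on days 4 and 6, and AL day 10 lies above CR days 6 and 8. miR-1819-3p was higher in CR worms on 4 of 4 days (0.98 ± 0.37, adjusted p = 0.144), and miR-5552-5p, from an intron of the splicing factor gene prp-6, had 4.01, 12.5, 20.2 and 7.45 CPM in CR worms on days 4, 6, 8 and 10, against 17.8, 23.1, 29.5 and 9.67 CPM in AL worms (-1.03 ± 0.41, 0.157; SE, edgeR). With total counts, miR-5552-5p in CR worms was slightly above AL worms on day 8 (14.22 against 13.99 CPM) and day 10 (8.44 against 8.41 CPM). With TMM, CR and AL worms stood on the same sides on 4 of 4 days for 9 of 35 late-numbered miRNAs, against 25.9% of all miRNAs.

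CR and IF worms did not differ by the test in any late-numbered miRNA or in any of the 212 (0%; edgeR; 18 with an unadjusted p under 0.05, 1 of them late-numbered; DESeq2 and limma-voom called 0). miR-4816-3p had the smallest p, with 11.8, 44.8, 10.8 and 33.2 CPM in CR worms on days 4, 6, 8 and 10, against 73.02, 72.8, 33.2 and 42.4 CPM in IF worms. CR was lower on 4 of 4 days (-1.30 ± 0.46 log2 units, SE; adjusted p = 0.444, edgeR), and CR day 6 lies above IF day 8. miR-8202-5p, from an intron of the sodium leak channel gene unc-77, had 10.8, 2.08, 7.39 and 6.78 CPM in CR worms, against 3.53, 1.34, 0.357 and 7.99 CPM in IF worms (1.18 ± 0.58, adjusted p = 0.508, edgeR). Among the rest, miR-1822-3p had 1.21 ± 0.63, miR-8201-5p -1.07 ± 0.56 and miR-1020-3p 0.76 ± 0.41 (SE; adjusted p = 0.508 for each, edgeR). CR and IF worms stood on the same sides on 4 of 4 days for 6 of 35 late-numbered miRNAs, against 23.1% of all miRNAs. The comparisons of CR and of IF with AL worms share the AL libraries.

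Both arms were named for 80 of the hairpins, and 29 of these had an arm past the minimum: the 5p arm had more reads in 13 and the 3p arm in 16. For most, nearly all reads were on 1 arm, as in miR-1820 (99.8% 5p) and miR-1819 (0.0776% 5p). Both arms passed in 5: miR-4816 (23.3% 5p over all libraries), miR-1822 (42.3%), miR-1829a (77.6%), miR-5594 (65.8%) and miR-5592 (1.26%). An arm share is a ratio within a library, so scaling does not enter it.

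**Figure D5:**
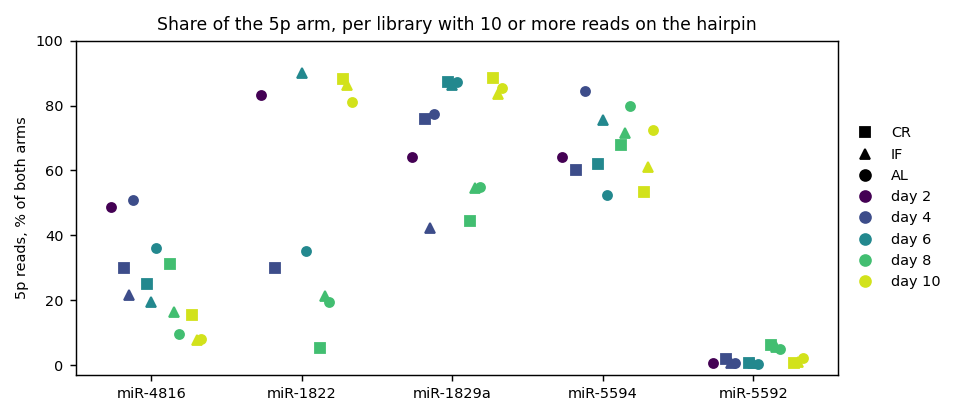
Share of 5p reads among the reads of both arms (y axis, %) for the 5 late-numbered hairpins with both arms past the minimum, in each library with 10 or more reads on the hairpin; squares are CR, triangles IF, circles AL, and colour runs from day 2 (dark) to day 10 (light). For miR-1822 and miR-1829a the day 8 libraries lie below those of day 10, and for miR-5592 the day 8 libraries lie above all others.

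The major arm of miR-1822 differed between days 8 and 10 in each diet. On day 8 the 5p share was 5.26% in CR (3 of 57 reads, 95% Wilson interval 1.81 to 14.4), 21.2% in IF (7 of 33, 10.7 to 37.8) and 19.6% in AL worms (9 of 46, 10.7 to 33.2). On day 10 it was 88.2% in CR (15 of 17, 65.7 to 96.7), 86.4% in IF (19 of 22, 66.7 to 95.3) and 81.2% in AL worms (13 of 16, 57.0 to 93.4). The intervals of the 2 days do not overlap in any diet. The earlier days show no common pattern in the libraries with 10 or more reads on the hairpin: the share was 30% on CR day 4 (3 of 10, 10.8 to 60.3), 90% on IF day 6 (9 of 10, 59.6 to 98.2), 83.3% on AL day 2 (15 of 18, 60.8 to 94.2) and 35.3% on AL day 6 (6 of 17, 17.3 to 58.7). On day 6 the IF and AL intervals do not overlap. The 3p arm differed most: it had 54, 26 and 37 reads on day 8 in CR, IF and AL worms, and 2, 3 and 3 reads on day 10.

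miR-1829a showed a smaller shift in the same libraries. Its 5p share on day 8 was 44.4% in CR (95% Wilson interval 34.1 to 55.3), 54.5% in IF (44.8 to 63.8) and 54.8% in AL worms (42.5 to 66.6). On days 6 and 10 it was 87.3% and 88.5% in CR, 86.3% and 83.6% in IF, and 87.2% and 85.5% in AL worms, with no interval of these reaching those of day 8. IF day 4 was also low, at 42.1%, from 19 reads. For miR-5592 the 5p share was 6.21% in CR, 5.45% in IF and 4.87% in AL worms on day 8, and 0.246% to 2.20% in the other 10 libraries.

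In miR-4816 the 5p share was 29.9%, 25.1%, 31.25% and 15.5% in CR worms on days 4, 6, 8 and 10, 21.5%, 19.3%, 16.2% and 7.69% in IF worms, and 48.6%, 50.8%, 36.02%, 9.43% and 8% in AL worms on days 2, 4, 6, 8 and 10. The 95% Wilson intervals are 6.72 to 30.6 points wide. Day 10 was the lowest day in each diet. IF worms were below AL worms on days 4 and 6 and above them on day 8, and the IF and AL intervals overlap on days 8 and 10. These shares were compared by their counting intervals, with 1 library per diet and day and no further test.

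Likeness of pattern was measured by Pearson's r of log2 CPM over the 13 libraries, among the 214 miRNAs tested for slope; all points share libraries, scaling and days, so r is a description. The profile nearest to miR-5592-3p was that of miR-70-3p (r = 0.87), to miR-1820-5p that of miR-789-2-5p (0.85) and to miR-1829c-5p that of miR-357-3p (0.85). The nearest to miR-4937 was that of miR-791-3p (0.90), a neuronal miRNA, closely followed by miR-63-3p (0.89). miR-4816-3p was about equally near to miR-37-3p (0.732) and miR-44-5p (0.727). miR-4813-3p was nearest to miR-54-3p (0.92) and then miR-35-3p (0.91). Of these, miR-35 and miR-37 belong to the mir-35 family of oocytes and embryos. miR-1822-3p and miR-5592-5p were both nearest to miR-90-5p (0.91 and 0.94). Between the arms of 1 hairpin r was 0.12 for miR-5592, 0.15 for miR-1822, 0.44 for miR-4816, 0.44 for miR-1829a and 0.48 for miR-5594.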

How the data were processed

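The 13 libraries are from whole N2 worms. Per the labels' protocols, ethanol-precipitated total RNA was run on a 6% polyacrylamide gel, the 18 to 30 nt fraction was kept, and an Illumina small RNA kit (version 1.5) was used. The authors deposited raw counts of reads for each mature miRNA and hairpin, per the file headers, as 447 entries a library. The aligner, counter, miRNA release and build were not given in the sources used here.

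Entries of the same mature miRNA were collapsed to their highest count, which left 434 names and removed 0.0185% to 0.219% of the reads of a library. Counts were tested with the quasi-likelihood F test of edgeR 4.0.16 (R 4.3.3), with TMM scaling and a filter of 10 reads in 4 of the libraries fitted. Diet (factor) and day (factor) were fitted on the 12 libraries of days 4 to 10, where all diets share 1 estimate of the spread. The slope with day, with diet as a factor, was fitted on all 13 libraries. Slopes by diet were fitted on the 12. Tests are two-sided, p-values were adjusted by Benjamini-Hochberg over all miRNAs tested (threshold 0.05). The SE was taken as the log2 fold change over the square root of F. log2 CPM used a prior count of 2. Shares have 95% Wilson intervals. The scripts were also run on simulated counts.

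The members, lists and tests were chosen with earlier results of these data known. Any miRNA past the filter could be named; given in full were the 10 of highest mean CPM, those past the threshold (at most 8 in each direction) and, where fewer than 5 passed, those of smallest p up to 5. Day served as a block in the diet comparisons, since the replicate numbers in the labels stand for the days and libraries of a day moved together: after removing diet means, r over the 12 same-day pairs was 0.555 to 0.894 (median 0.771). Over the 36 pairs that differ in day and diet it was -0.585 to 0.316 (median -0.269). Removing diet means itself makes these r mostly negative when same-day r is positive, so they add no separate support for the block.

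Hairpins were placed by name in the WBcel235 annotation of Ensembl release 115, and hairpins at most 10000 bp apart counted as neighbours. A hairpin counted as spanning an intron when each of its ends lay within 5 nt of the intron's end. In the 7 hairpins found, both ends coincided. Alternatives were DESeq2 1.42.0, limma-voom (limma 3.58.1), other scalings, filters and thresholds, no day term, day as its logarithm or as a random block, and each library left out. Tables were made in Python 3.11.15 (pandas 2.3.3; numpy 2.4.6), intervals with scipy 1.17.1 and plots with matplotlib 3.10.9.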

Additional observations from a re-analysis of the deposited data

Results flagged for a closer look

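Among the 20 late-numbered miRNAs named with their levels, each of the 3 diets was searched for a lone library far from the rest of its diet, using Dixon's 95% critical value. Of 60 groups, 12 had such a library. Chance marks about 1 in 20 groups of like samples, but the libraries of a diet are of different days and the 20 miRNAs were named for their levels or day differences, so that rate is no yardstick here and a lone high day can repeat a day difference already given. In all 12 the lone library was the highest of its diet, and 11 of the 12 were libraries of day 8 or day 10.

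On day 8, miR-1822-3p stood apart in all 3 diets, at 26.6 CPM in CR worms (next highest 1.75), 9.27 CPM in IF worms (0.557) and 17.6 CPM in AL worms (2.25). miR-1820-5p stood apart on CR day 8, at 352 CPM (167.7), miR-1819-3p on AL day 8, at 65.2 CPM (15.3), and miR-1020-3p on AL day 8, at 10.9 CPM (5.19).

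On day 10, miR-1829c-5p stood apart in IF worms, at 322 CPM (33.4), and in AL worms, at 171 CPM (32.0). miR-2209a-3p stood apart in the same pair of libraries, at 7.24 CPM in IF (1.96) and 7.07 CPM in AL worms (0.951). miR-1829b-5p stood apart in IF worms only, at 38.3 CPM (7.46). The lone value of another day was that of miR-4816-5p on CR day 6, at 15.02 CPM (6.1).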

How the results depend on the processing

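The counts of late-numbered miRNAs called are given with the share of all miRNAs called under the same setting. With only the IF and AL libraries, miR-2208a-5p was under the minimum, so it was not tested there. For IF against AL (2 called; all 14.2%) the count was 3 with DESeq2 size factors (all 17.0%), DESeq2 (24.1%) or limma-voom (16.5%), each time with miR-5592-3p added, 4 with total-count scaling (19.8%), 5 without a filter (11.4%), 4 at an adjusted p under 0.10 (22.2%), 0 without the replicate block of days (0%), 0 with only IF and AL libraries and the block (7.22%), and 0 to 3 with each library left out (3.33% to 17.1%). For CR against AL (0 called; all 0%) it was 1 with DESeq2 size factors (4.25%), 2 with total counts (7.08%), 2 without a filter (5.95%), 2 with DESeq2 (9.91%), 1 at 0.10 (7.55%), and 0 to 1 with each library left out (0% to 6.16%). For CR against IF and for slopes that differ between diets it stayed at 0 under every alternative run. For the slope with day (2 called; all 13.6%) it was 0 with total counts (7.94%), 1 without a filter (7.8%), 6 with DESeq2 (30.4%), 0 with day as its logarithm (8.88%), 0 with day as a random replicate block in limma-voom (1.87%), and 0 to 2 with each library left out (8.45% to 14.8%). For differences between days (26 called; all 76.4%) it was 40 without a filter (49.5%), 15 with 30 reads in 4 libraries (79.5%), 14 without the day 8 libraries (39.5%), and 22 to 28 with each library left out (67.1% to 80.6%). For the slope the count stayed at 2 without the day 8 libraries (17.9%), with neither miR-4937 nor miR-4816-5p among them. The cause of these changes was not tested, apart from the fewer or more miRNAs that a filter lets in.

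Total-count scaling moved the median over all miRNAs tested to a log2 fold change of 0.45, against 0.03 with TMM, for IF against AL, and to 0.50, against 0.08, for CR against AL; the part of that shift in the 4 and 2 calls was not tested. The count with 1 peak day in all 3 diets was 17, and 9 where both scalings had to name the same day; on day 6 it was 5, and 17 with total counts; on day 8 it was 10, and 3 with total counts or with both; on day 10 it was 2, 3 with total counts and 1 with both. These scaling alternatives were chosen after seeing the data. The 90 detected became 142 at 1 read, 59 at 10 reads and 21 at 3 reads in all 13 libraries, and the 36 past the minimum became 59 at 10 reads in 1 library, 12 at 10 reads in all 13 and 19 at 30 reads in 4. Of 452 values of single miRNAs under alternatives, 380 kept their direction and their side of the threshold, 42 dropped below it, 30 passed it and 0 changed direction. Depth limits the miRNAs under 3 CPM most, since they rest on a few reads in most libraries.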
